A study of Macaca mulatta with 20 samples.

Results

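Rhesus macaque corpora lutea collected after 6 days of human chorionic gonadotropin (hCG) were compared with untreated corpora lutea in 8 of the 20 Affymetrix arrays of the series, 4 against 4. The treated group was taken on luteal day 15. Its females had received hCG into muscle 2 times a day from luteal day 9, in a rising regimen that simulates early pregnancy. The full regimen has 9 doses from 15 to 2880 IU, and the labels do not give the dose reached by each collection day. The baseline group was taken on luteal day 10 from females without hCG. The other arrays came from the same regimen on luteal days 10, 12 and 18, after 1, 3 and 9 days of hCG, with 4 arrays a group. Days of hCG, luteal day and dose all differ between the treated and the baseline group, and no untreated tissue of day 15 is part of the comparison, so their effects cannot be told apart. Per the labels each array measured 1 corpus luteum, but they do not say that the corpora lutea came from separate animals. The p-values therefore measure the spread between these samples.

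The corpus luteum forms from the wall of the ovulated follicle and makes progesterone from cholesterol. Its lutein cells carry the luteinizing hormone receptor, which raises cyclic AMP in the cell. Chorionic gonadotropin from the implanting embryo binds the same receptor and extends the life of the gland, and the tissue around the lutein cells holds endothelium, pericytes, fibroblasts and immune cells. The arrays read RNA of the whole gland, so fewer cells of a type and less RNA per cell cannot be told apart.

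Signals below are the authors' linear intensities, and changes are differences of log2(signal + 16), which understates the change of dim probe sets. The 8 arrays correlated at 0.969 to 0.973 within the hCG day 15 group, at 0.972 to 0.979 within the untreated group and at 0.962 to 0.977 between the groups. Array medians averaged 39.5 in the treated and 44.0 in the untreated group (two-sided exact permutation p = 0.0571, adjusted p = 0.229 over 4 quality measures, where 0.0286 is the smallest p that 4 against 4 allows). In a principal component analysis, component 3 (8.4% of the variance) set 3 arrays apart at 50.2 to 54.8, with all others between -23.6 and 4.82. They were replicate 2 of both the untreated and the hCG day 15 group, and replicate 1 of hCG day 12. On them the lumican gene LUM reached 602, 1657 and 558, against 7.53 to 152 elsewhere. The interferon-induced gene ISG15 reached 1177, 877 and 1005 on the same arrays, against 210 to 664 elsewhere. Part of the results is therefore also given without these 3 arrays. Defining genes of steroid-producing lutein cells were bright in both groups: STAR, the carrier of cholesterol into mitochondria, averaged 14873 in untreated and 15655 in treated tissue, and CYP19A1, the oestrogen-forming aromatase, 6073 and 9501. HSD3B2, also a marker of granulosa-lutein cells, averaged 8320 and 4347. Of the 5 measured markers of these cells it alone passed the test described below, as lower, and 4 did not pass.

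In hCG day 15 against untreated day 10, 681 of 52707 probe sets passed limma's test at an adjusted p under 0.05 (1.29%). Higher probe sets numbered 326 (0.619%, from 163 named genes) and lower ones 355 (0.674%, from 188), and 342 differed at least 2-fold (0.649%). The split depends on scaling: 47.9% of the called probe sets were higher as deposited and 64.7% after each array was centred on its median, which moves all changes by 0.11. The arrays of the groups did not overlap for 657 of the 681 (1.25% of all probe sets), while 7.2% of all probe sets, called or not, did not overlap. Leaving out each array in turn kept 265 of the 681 calls in all 8 fits, 131 higher and 134 lower. Without hCG day 15 replicate 4, untreated replicate 1 or untreated replicate 4 the fit called 321, 379 and 428 probe sets, and without the 3 arrays that lay apart it called 359. Leaving out those 3 arrays ended 29 of 76 named calls. The genes below kept their call in all 8 fits unless arrays are named. When the fit held only the 8 compared arrays, which leaves fewer arrays to estimate the spread, 230 probe sets were called and 32 of 76 named calls ended. Of these, 12 had been kept in all 8 leave-one-out fits (adjusted p 0.05 to 0.089), and those described below are marked with that value. This check was recorded for the 76 named calls only, so MVD and second probe sets outside them bear no mark either way. Of 6375 genes with at least 2 probe sets on the array, 79 had at least 2 called in the same direction, 45 higher and 34 lower. In 1 of the 79 another probe set was called in the other direction.

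**Figure D1:**
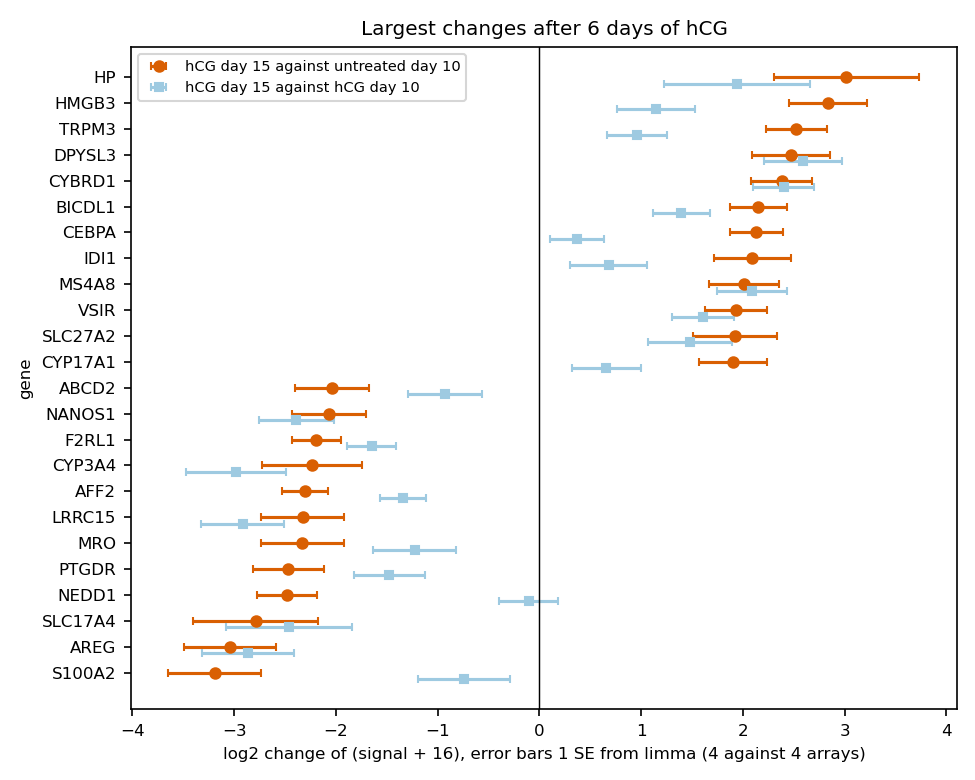
Log2 change of (signal + 16) for the 12 genes with the largest rise and the 12 with the largest fall in hCG day 15 against untreated day 10 (circles), with the change against hCG day 10 beside each (squares); bars are 1 standard error from limma, 4 arrays against 4. CEBPA and NEDD1 lie far from 0 against untreated tissue and within 0.37 of 0 against hCG day 10, whereas CYBRD1, DPYSL3 and AREG lie far from 0 in both.

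Enzymes of cholesterol synthesis were higher after 6 days of hCG. Of 13 measured enzymes 7 were called higher and 0 lower, with a median log2 change of 1.27, where 1.97% of 14132 genes were called, 0.969% higher and 0.998% lower, and the median gene changed by -0.03. Here and below each gene of a list is measured by the probe set with the highest mean. In the order of the pathway, MVD, the mevalonate diphosphate decarboxylase, had signals of 177, 164, 259 and 126 in the untreated arrays and 513, 500, 564 and 1313 in the treated ones. No treated array reached down to an untreated one, and replicate 4 was the highest (log2 change 1.82 ± 0.35, SE, adjusted p = 0.011). The next enzyme, the isopentenyl diphosphate isomerase IDI1, went from 1046, 1292, 1833 and 853 to 3837, 4502, 3121 and 4392. That is a 3.22-fold rise (1.69 ± 0.26, adjusted p = 0.0023), and the other probe sets of IDI1 gave 2.00 and 2.09, both called. The groups again did not overlap. The probe set used for the array values can also bind similar sequences, as its name marks, and the one at 2.09 was at 2.02 without the 3 arrays that lay apart (adjusted p = 0.052).

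FDFT1, squalene synthase and the first enzyme committed to sterols, had 1583, 1458, 2330 and 1504 in untreated and 4299, 2941, 4002 and 5551 in treated arrays. Its rise was 2.41-fold (1.27 ± 0.20, adjusted p = 0.0024, but 0.05 and not called in the fit of only the 8 arrays). CYP51A1, the lanosterol demethylase, stood at 929, 1023, 1557 and 775 against 3233, 2622, 2186 and 3237. All treated arrays lay above all untreated ones, and the rise was 2.66-fold (1.41 ± 0.24, adjusted p = 0.0045). EBP, the isomerase that acts late in the pathway, averaged 818 in untreated and 2956 in treated tissue, a 3.51-fold rise (1.81 ± 0.28, adjusted p = 0.0024).

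The remaining called enzymes rested on more of the arrays. SQLE, the squalene epoxidase, changed by 1.40 (adjusted p = 0.017), and its call ended without untreated replicate 1 or 4 or hCG day 15 replicate 1 or 4 (adjusted p 0.053 to 0.081). DHCR7, which makes cholesterol from its last precursor, changed by 1.41 (adjusted p = 0.023), and its call ended without untreated replicate 2 or 4 or hCG day 15 replicate 1 or 4 (0.053 to 0.086). The 6 enzymes not called were FDPS at -0.01, PMVK at 0.18, MVK at 0.20, TM7SF2 at 0.76, HSD17B7 at 0.87 and NSDHL at 0.87. A second HSD17B7 probe set was at 1.16 (adjusted p = 0.038), with a call that 6 of the 8 fits ended. The early kinases of the pathway, MVK and PMVK, thus had the smallest values together with FDPS. Without the 3 arrays that lay apart, 5 of the 13 enzymes were called higher and the median change was 1.36.

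The sterol enzymes stood at a similar level after 1 day of hCG. Against hCG day 10, 0 of the 13 enzymes were called in either direction and the median change was -0.02. Median levels of the 13 enzymes relative to the untreated mean were 0.64, 0.81, 1.32 and 1.47 on the hCG day 10 arrays and 1.36, 0.80, 1.00 and 1.63 on the day 15 arrays. The groups overlapped over most of their ranges. Of the genes of sterol sensing and lipoprotein uptake, 1 of 11 was called, the sterol sensor gene INSIG1. Its mean went from 623 to 1413 (1.13 ± 0.25, adjusted p = 0.03). Its call ended without untreated replicate 1, 2 or 4 or hCG day 15 replicate 1 or 4 (0.078 to 0.12). SREBF2, the transcription factor of the pathway, was at 0.16 and NPC1, which exports cholesterol from lysosomes, at 0.11, both not called. In cholesterol storage and efflux 0 of 9 genes were called, with APOE at 0.44 and APOA1 at -0.55. A dimmer probe set of the apolipoprotein gene APOE was at 1.34 (adjusted p = 0.026), with a call that 6 of the 8 fits ended.

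**Figure D2:**
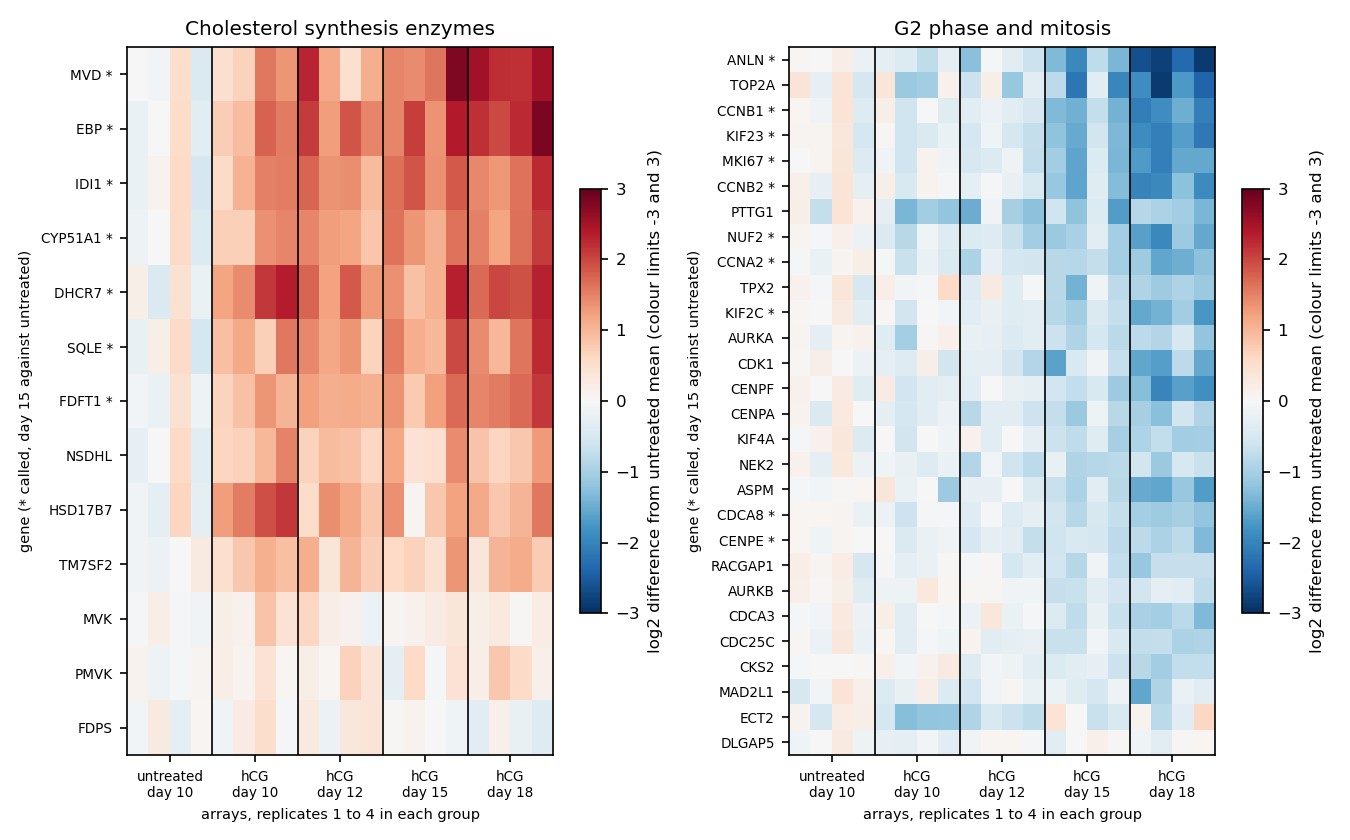
Log2 difference of each array from the untreated mean for the 13 cholesterol synthesis enzymes (left) and the 28 genes of G2 phase and mitosis (right), with 4 arrays a group and colours limited at -3 and 3; asterisks mark genes called in hCG day 15 against untreated day 10. All but MVK, PMVK and FDPS among the sterol enzymes are red in every hCG group, and most mitotic genes turn blue on day 15 and are bluer on day 18, with hCG day 15 replicate 3 the palest of its group.

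The genes of the progesterone synthesis list did not move as 1 block. Of 13 genes 2 were called higher and 2 lower, with a median of -0.02 (0.09 after median-centring). MRAP and POR were higher, and HSD3B2 and NR5A2 lower. Of these only HSD3B2 is an enzyme that forms progesterone, so no such enzyme was called higher. The melanocortin receptor accessory protein gene MRAP had 637, 1080, 919 and 1034 in untreated and 1780, 1566, 1852 and 2043 in treated arrays. The groups were clear of each other and the rise was 1.99-fold (0.99 ± 0.15, adjusted p = 0.0024, but 0.056 in the fit of only the 8 arrays); its other probe set gave -0.05. HSD3B2, which converts pregnenolone to progesterone, had 6740, 8048, 8993 and 9501 against 5075, 3423, 5831 and 3062. All treated values were below all untreated ones (-0.97 ± 0.21, adjusted p = 0.024), but the call ended without untreated replicate 2, 3 or 4 or hCG day 15 replicate 2 or 4 (0.053 to 0.11). POR, the electron donor of microsomal P450 enzymes, was at 0.89 (adjusted p = 0.021), with a call that ended without untreated replicate 3 or 4 or hCG day 15 replicate 4 (0.063 to 0.088). The nuclear receptor gene NR5A2 was at -0.72 (adjusted p = 0.046), and its call held only without hCG day 15 replicate 3 (0.055 to 0.12 in the other 7 fits). Its other probe sets, at -0.94 and -0.92, were both called. Without the 3 arrays that lay apart, 2 genes of the list were called higher and 0 lower. STAR changed by 0.07 and the electron carrier FDX1 by -0.17, neither of them called.

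Of 8 genes of androgen and oestrogen synthesis, the androgen-forming enzyme CYP17A1 alone was called. It had 358, 406, 274 and 255 in untreated and 1343, 1239, 892 and 1558 in treated arrays, with the lowest treated array, replicate 3, well above the highest untreated one. The rise was 3.74-fold (1.90 ± 0.34, adjusted p = 0.0062), and the gene's other probe set gave 0.29 and was not called. CYP17A1 is also a marker of theca-lutein cells, whose other measured markers DLK1 and NR2F2 were at 0.32 and 0.02. CYP19A1 was at 0.61 (adjusted p = 0.34), with untreated replicate 4 at 3806 and the other untreated arrays between 6733 and 6927. The progesterone receptor gene PGR, the only one called of 17 steroid and nuclear receptor genes, had 120, 116, 126 and 123 in untreated and 69.8, 58.5, 53.0 and 41.1 in treated arrays. It fell by 0.95 on the log2 scale (adjusted p = 0.015). The call ended without hCG day 15 replicate 4 (0.069) and without the 3 arrays that lay apart (0.066). The groups did not overlap, and the signals were dim throughout.

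Of 10 genes of EGF receptor ligands and receptors, 2 were called against untreated tissue, both lower. AREG, amphiregulin, a growth factor that LH induces in follicles, had signals of 9134, 6367, 7603 and 9356 in untreated and 1822, 284, 1404 and 1154 in treated arrays. Replicate 2 was the lowest treated array, and all 4 lay below the untreated range. The fall was 8.21-fold (-3.04 ± 0.45, adjusted p = 0.0018). The gene was lower than on hCG day 10 as well (-2.86 ± 0.45, adjusted p = 0.0014), when the mean was 7158. Betacellulin, BTC, had 429, 368, 431 and 509 against 267, 221, 104 and 191 (-1.15 ± 0.24, adjusted p = 0.018), and its call ended without untreated replicate 1 or 4 or hCG day 15 replicate 4 (0.052 to 0.064). A second BTC probe set, at -1.05, kept its call in all 8 fits. Against hCG day 10 the test did not call BTC (0.09, adjusted p = 0.95). Against untreated tissue the remaining 8 of 10 genes of the list were not called, with EGF itself at 1.30 (adjusted p = 0.06) and the receptor EGFR at 0.32. Against hCG day 10, 1 gene of the list was called higher and 1 lower.

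Among inhibin, activin and BMP genes, 0 of 27 were called higher and 2 lower. FSTL3, an extracellular protein that binds activins, had 431, 443, 329 and 247 in untreated and 109, 94.0, 121 and 51.1 in treated arrays. Groups were separate and the fall was 3.48-fold (-1.80 ± 0.29, adjusted p = 0.0029), and against hCG day 10 it was -2.19 ± 0.29 (adjusted p = 0.00025). ID4, a helix-loop-helix repressor under BMP control, had 5758, 6444, 3946 and 7833 against 2454, 2989, 2316 and 3290. It fell by 1.09 on the log2 scale (adjusted p = 0.0054, but 0.072 in the fit of only the 8 arrays), and its other 3 probe sets, between -1.52 and -1.01, were called too. FST, the follistatin gene, was at 1.35 and not called (adjusted p = 0.068), with untreated replicates from 119 to 597. Of 15 IGF and insulin genes the binding protein IGFBP1 was called: it had 7603, 3295, 4475 and 4937 in untreated and 11671, 12722, 15256 and 11767 in treated arrays. Each treated array was brighter than each untreated one (1.39 ± 0.26, adjusted p = 0.0078). IGF1 was close to the untreated level (-0.24, adjusted p = 0.73).

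**Figure D3:**
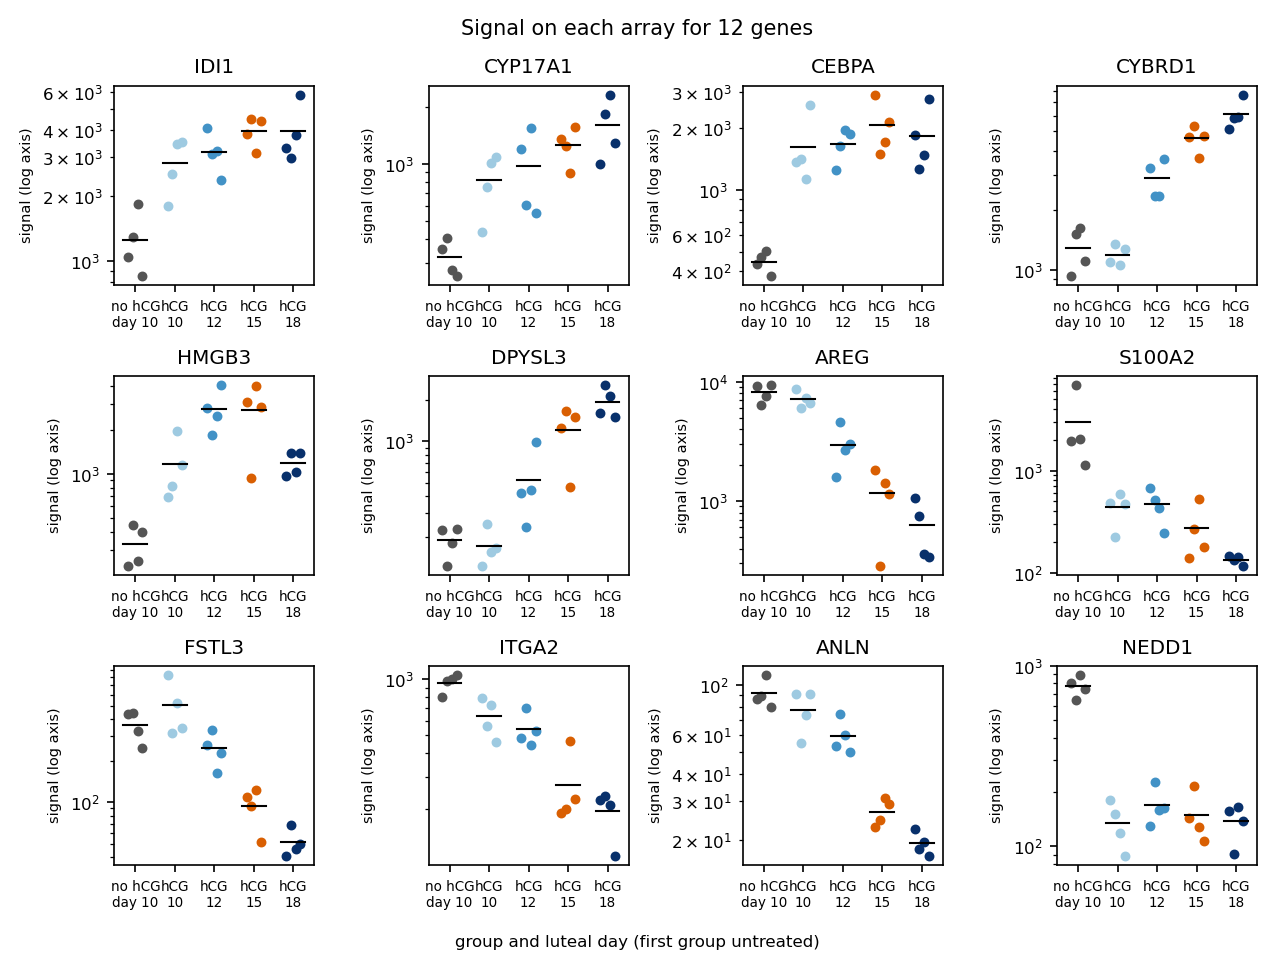
Signal (log axis) of 12 genes on each of the 20 arrays, 4 points a group and the group mean as a bar, for the probe set with the smallest adjusted p among those named. CEBPA and NEDD1 stand at their day 15 level already in the hCG day 10 group. Group means of CYBRD1 and DPYSL3 are higher from hCG day 12 on, and those of AREG and FSTL3 lower. For FSTL3 the hCG day 12 arrays overlap the untreated ones, and day 12 was not tested against untreated tissue.

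Genes of cell division were lower. Of 28 genes of G2 phase and mitosis 10 were called lower and 0 higher, and all 28 changes were below 0, with a median of -0.71 (-0.60 after median-centring). ANLN, anillin, which shapes the cleavage furrow, had 86.8, 89.4, 111 and 80.1 in untreated and 22.9, 24.6, 31.1 and 29.0 in treated arrays. These are from the probe set with its smallest p-value by limma. The ranges were far apart and the fall was 2.51-fold (-1.33 ± 0.14, adjusted p = 0.00014). A brighter probe set gave -1.35 ± 0.24 (adjusted p = 0.0066), and a dim one was at 0.01 and not called. CCNB1, cyclin B1, had 454, 406, 586 and 329 against 165, 150, 257 and 152 (-1.22 ± 0.20, adjusted p = 0.004, but 0.052 in the fit of only the 8 arrays). Replicate 3 was the highest of the treated arrays and still below the untreated range. KIF23, a kinesin of the midbody, fell by 1.15 on the log2 scale (adjusted p = 0.008, but 0.089 in the fit of only the 8 arrays), and CCNA2, cyclin A2, by 0.86 (adjusted p = 0.0096).

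The other 6 called mitotic genes rested on more of the arrays. MKI67, the Ki-67 proliferation antigen, was at -1.10 (adjusted p = 0.018) and its call ended without untreated replicate 1, 2 or 3 or hCG day 15 replicate 2 or 4 (0.05 to 0.081). CCNB2, cyclin B2, was at -1.09, with a call that ended without untreated replicate 1 or 3 or hCG day 15 replicate 1, 2 or 4 (0.058 to 0.09). CDCA8, a subunit of the chromosomal passenger complex, was at -0.65 and lost its call without untreated replicate 1 or 3 or hCG day 15 replicate 2 or 4 (0.055 to 0.068). All 3 stayed below 0 in each of these fits. KIF2C, a kinesin that trims microtubules, was at -0.76 and lost its call without untreated replicate 1, 2 or 3 or hCG day 15 replicate 1, 2 or 4 (0.069 to 0.11). The kinetochore gene NUF2 was at -0.86 and called only without hCG day 15 replicate 3 (0.066 to 0.14 otherwise), and CENPE at -0.60 was called in none of the 8 fits (0.05 to 0.14).

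Median levels of the 28 mitotic genes relative to the untreated mean were -0.67, -0.87, -0.39 and -0.80 on the hCG day 15 arrays and 0.06, -0.07, 0.27 and -0.19 on the untreated ones. Replicate 3 lay nearest to the untreated arrays. Against hCG day 10, 7 of the 28 genes were called lower, where 2% of all genes were, with a median of -0.46. Without the 3 arrays that lay apart, 3 of 28 were called against the untreated group and the median was -0.70; KIF23 was then at -1.01 (adjusted p = 0.091). Of 29 genes of G1 phase and DNA replication 3 were called lower and 0 higher, with a median of -0.30. UHRF1, which keeps DNA methylation through replication, had 223, 179, 250 and 188 against 71.3, 55.0, 93.6 and 73.1. It fell 2.54-fold (-1.34 ± 0.21, adjusted p = 0.0024) with groups well apart. The cyclin gene CCNE2, at -0.90, lost its call without untreated replicate 1, 3 or 4 or hCG day 15 replicate 1, 2 or 4 (0.057 to 0.086), and the helicase subunit gene MCM3, at -0.82, without untreated replicate 1, 2 or 3 or hCG day 15 replicate 1, 2 or 4 (0.085 to 0.12). NEDD1, the centrosome protein that recruits gamma-tubulin, was lower by 5.58-fold in the probe set with its largest change, with 2199, 1091, 1342 and 1513 against 366, 309, 239 and 151 (-2.48 ± 0.29, adjusted p = 0.00029). All 4 of its probe sets were called lower, the other 3 at -2.29 to -2.01, and against hCG day 10 it was not called (-0.10, adjusted p = 0.96).

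The transcription factor gene CEBPA and the iron reductase gene CYBRD1 were among the named genes that rose. CEBPA, a factor that drives differentiation and metabolic genes in liver and fat, had 435, 472, 502 and 379 in untreated and 2910, 1507, 1708 and 2157 in treated arrays. No array of the groups came near the other group, the rise was 4.39-fold (2.13 ± 0.26, adjusted p = 0.00046), and its other probe sets, at 1.44 and 1.78, were called. The related CEBPB and CEBPD were both at 0.61 and not called. CYBRD1, a ferric reductase of cell membranes, had 926, 1508, 1615 and 1105 against 4687, 5342, 3670 and 4757. It rose 3.61-fold (1.85 ± 0.19, adjusted p = 0.00013) with replicate 3 the lowest treated array, and its dimmer probe set rose 5.21-fold (2.38 ± 0.30, adjusted p = 0.00053).

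Of 22 iron, haem and metal genes 4 were called higher and 0 lower, with a median of 0.10, and the other 3 besides CYBRD1 were less stable. HP, haptoglobin, the binder of free haemoglobin, had 83.3, 36.8, 54.8 and 102 in untreated and 1407, 547, 171 and 1245 in treated arrays. The spread among treated arrays was wide, and the change of 3.02 ± 0.72 (adjusted p = 0.042) was called only without replicate 3 (0.069 to 0.15 in the other 7 fits). FTL, the ferritin light chain, was at 0.76 and lost its call without untreated replicate 1, 3 or 4 or hCG day 15 replicate 1, 2 or 4 (0.059 to 0.093). BLVRB, a biliverdin reductase, was at 0.94 and was called only without hCG day 15 replicate 3 (0.088 to 0.16 otherwise). In HP, FTL, BLVRB and CYBRD1 alike, hCG day 15 replicate 3 had the lowest signal of the treated arrays. Erythroid markers did not pass the test, with HBB at 0.92 (adjusted p = 0.38) and ALAS2 at 0.25.

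Antioxidant and autophagy genes gave 1 call each, of 21 and 20 genes. MGST1, a membrane glutathione transferase, had 2698, 3608, 3581 and 2864 in untreated and 7319, 7186, 8763 and 8676 in treated arrays. The rise was 2.51-fold with compact, separate groups (1.33 ± 0.18, adjusted p = 0.00081), and its second probe set, at 1.60, was called. SQSTM1, the autophagy receptor p62, had 2997, 2591, 2565 and 2279 against 5967, 5192, 5776 and 5097 (1.08 ± 0.15, adjusted p = 0.001); its other probe set was at 0.03. Of the antioxidant genes 18 of 21 were above 0 and of the lysosome and autophagy genes 17 of 20, with medians of 0.22 and 0.19. These medians were 0.12 and 0.17 with quantile normalisation.

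Genes of fuel use changed singly. SLC16A1, a lactate and ketone transporter, had 464, 251, 449 and 466 in untreated and 1211, 748, 1056 and 1963 in treated arrays. It rose 2.89-fold (1.53 ± 0.27, adjusted p = 0.006, but 0.07 in the fit of only the 8 arrays), with 1 of its 3 other probe sets called. The hexokinase gene HK1 was at -0.92 (adjusted p = 0.03), and its call ended without untreated replicate 1, 2 or 4 or hCG day 15 replicate 1, 2 or 4 (0.053 to 0.11). None of its other probe sets, between -0.16 and 0.03, was called. Other genes of glycolysis and glucose uptake, 21 of 23, were not called. Of 26 fatty acid genes 3 were called higher: the desaturase FADS2 at 1.65, which was called only without hCG day 15 replicate 3 (0.056 to 0.15 otherwise), ANGPTL4, an inhibitor of lipoprotein lipase, at 1.05, and the acyl-CoA synthetase ACSL1 at 0.80. The other FADS2 probe set was at 0.15 and not called. ANGPTL4 lost its call without untreated replicate 1, 2 or 4 or hCG day 15 replicate 1 or 4 (0.063 to 0.11) and ACSL1 without untreated replicate 1, 3 or 4 or hCG day 15 replicate 1, 2 or 4 (0.07 to 0.14).

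Among the genes with the largest changes, SLC27A2, which activates very long chain fatty acids, was at 1.93, from 150, 179, 297 and 133 to 558, 813, 574 and 1113. The call ended without untreated replicate 1, 2 or 4 or hCG day 15 replicate 2 or 4 (0.054 to 0.097). ABCD2, a transporter that brings such fatty acids into peroxisomes, had 168, 133, 88.1 and 222 against 24.2, 20.7, 32.5 and 17.7. It fell 4.1-fold (-2.03 ± 0.36, adjusted p = 0.0068), down to the dim end of the array, while its other 2 probe sets, at -0.29 and -0.12, were not called. PPARGC1A, a coactivator of mitochondrial genes, was at 1.16 and called only without hCG day 15 replicate 3 (0.052 to 0.12 otherwise). None of the other 23 genes of the mitochondrial list was called.

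Several receptors and adhesion molecules were lower. F2RL1, the protease-activated receptor of trypsin-like enzymes, had 1748, 1075, 1712 and 1146 in untreated and 306, 348, 268 and 249 in treated arrays. The treated values lay in a narrow band far under the untreated ones, the fall was 4.57-fold (-2.19 ± 0.24, adjusted p = 0.00016), and the second probe set gave -1.96 and was called. Its relatives F2R and F2RL2 were at -0.82 and -1.24 and were not called. PTGDR, a prostaglandin D2 receptor, had 285, 482, 201 and 88.0 against 23.9, 18.3, 39.6 and 31.7. It fell 5.53-fold (-2.47 ± 0.35, adjusted p = 0.0012), to signals close to the pseudocount of 16, and its second probe set at -2.41 was called.

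ITGA2, the collagen-binding integrin subunit, had 803, 973, 1003 and 1052 in untreated and 191, 200, 465 and 228 in treated arrays. Replicate 3 was the highest treated array, and the fall was 3.6-fold (-1.85 ± 0.26, adjusted p = 0.001). TNFRSF12A, the receptor of the cytokine TWEAK, had 1492, 1543, 1423 and 980 against 282, 442, 456 and 383. It fell 3.38-fold (-1.76 ± 0.31, adjusted p = 0.0066) and was lower than on hCG day 10 too (-1.98 ± 0.31, adjusted p = 0.0014). It was the only one called of 41 chemokine, cytokine and receptor genes. The junction gene CLDN3 was at -1.17, and its call ended without untreated replicate 1, 3 or 4 or hCG day 15 replicate 1, 2 or 3 (0.09 to 0.16).

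The largest fall among the named genes was that of S100A2, a calcium-binding protein of epithelia, with 1934, 6862, 2036 and 1139 in untreated and 139, 267, 522 and 179 in treated arrays. Untreated replicate 2 was the highest by far, but each untreated array was above each treated one (-3.19 ± 0.45, adjusted p = 0.0012). Other genes with large falls were MRO, maestro, and NANOS1, an RNA-binding repressor of translation. MRO had 4217, 6081, 2652 and 5233 against 728, 1467, 710 and 695 (-2.33 ± 0.41, adjusted p = 0.0057), while its other 2 probe sets were at 0.23 and 0.41. NANOS1 had 1380, 911, 1451 and 1431 against 524, 199, 262 and 260 (-2.07 ± 0.37, adjusted p = 0.0066). AFF2, a nuclear protein of the FMR2 family, had 395, 254, 412 and 396 against 76.5, 58.5, 68.3 and 40.6 (-2.30 ± 0.23, adjusted p = 8.2e-05). LRRC15, a membrane protein of matrix-producing cells, fell 5.02-fold (-2.33 ± 0.40, adjusted p = 0.0056, but 0.058 in the fit of only the 8 arrays), from a mean of 358 to 49.2, with its other probe set at -0.16, and was at -2.22 without the 3 arrays that lay apart (adjusted p = 0.057).

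A few large changes were uncertain in the probe set or the call. SLC17A4, a transporter of organic anions, was at -2.79 and was called only without untreated replicate 1 (0.051 to 0.094 otherwise). The drug-metabolising enzyme gene CYP3A4 was at -2.23 in a probe set marked as shared between similar sequences, so signal from its near relatives cannot be told apart. Its call ended without untreated replicate 2 or 4 or hCG day 15 replicate 1, 2 or 4 (0.055 to 0.093), and its brightest probe set was at 0.04.

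Rises of the largest size also included genes outside these pathways. DPYSL3, a tubulin-binding protein of growing axons, had 228, 124, 181 and 229 in untreated and 1249, 1654, 467 and 1509 in treated arrays. Replicate 3 was low among the treated arrays, and the rise was 5.54-fold (2.47 ± 0.38, adjusted p = 0.0024); of 35 neuronal genes it was the only one called. TRPM3, a cation channel that pregnenolone sulphate can open, had 15.8, 22.2, 35.2 and 20.4 against 168, 376, 161 and 179. Its untreated signals were near the pseudocount, so the change of 2.53 ± 0.30 (adjusted p = 0.00029) is compressed. A second probe set of the gene was called, and KCNJ8, a subunit of potassium channels gated by ATP, was the only other one called of 39 channel genes (-0.75 ± 0.14, adjusted p = 0.0097, but 0.059 in the fit of only the 8 arrays).

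VSIR, an immune checkpoint protein of myeloid cells, had 101, 121, 89.8 and 91.8 in untreated and 419, 353, 361 and 630 in treated arrays (1.94 ± 0.30, adjusted p = 0.0025). Of the markers of macrophages 0 of 11 were called; their median was 0.09 and their summed signal ranged from 3705 to 10640 in untreated and from 5853 to 8902 in treated arrays. BICDL1, an adaptor of the dynein motor, had 147, 142, 226 and 121 against 825, 641, 595 and 967 (2.15 ± 0.28, adjusted p = 0.00074), and a second probe set was called. MS4A8, a membrane protein with 4 transmembrane spans, rose from a mean of 173 to 763 (2.02 ± 0.34, adjusted p = 0.0049), with its other 2 probe sets at -0.31 and -0.19. HMGB3, a chromatin protein, had 233, 446, 254 and 398 against 3084, 935, 3998 and 2844 (2.84 ± 0.38, adjusted p = 0.00084). Its 3 other probe sets lay between -0.79 and -0.12, so the rise was seen by 1 of 4.

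Signalling genes of the LH receptor pathway changed little. Of 35 cyclic AMP genes 1 was called higher and 1 lower, both phosphodiesterases: PDE7B at 1.06 and PDE8B at -1.61. PDE7B lost its call without untreated replicate 1, 2 or 4 or hCG day 15 replicate 1, 3 or 4 (0.063 to 0.14), and PDE8B without untreated replicate 2 or 3 or hCG day 15 replicate 1 or 4 (0.058 to 0.097). Of 24 immediate early genes and phosphatases of MAP kinases, DUSP10 was called, with 177, 248, 177 and 231 against 95.6, 126, 110 and 114 (-0.81 ± 0.15, adjusted p = 0.0069, but 0.06 in the fit of only the 8 arrays). FOS was at -0.38 and EGR2 at -0.57, neither of them called. STK26, a kinase of the germinal centre family, had 394, 169, 301 and 404 against 59.9, 41.4, 87.2 and 86.6 (-1.94 ± 0.27, adjusted p = 0.00098). It was lower in 4 of 5 probe sets by the test and stood at -0.05 against hCG day 10.

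Matrix and vascular genes gave few calls. In 31 collagens and matrix proteins 0 were called, with 25 below 0 and a median of -0.28, and in 23 angiogenic factors and receptors 0, with a median of -0.23. Without the 3 arrays that lay apart these medians were -0.11 and -0.15. The collagen gene COL5A2 was at -0.64 (adjusted p = 0.075) in its brightest probe set, and 1 dimmer probe set was called lower. How that call fared with arrays left out is not given here. The metalloprotease ADAM12 had 1815, 1762, 2005 and 1946 against 1168, 1030, 1057 and 944 (-0.83 ± 0.12, adjusted p = 0.00096). The collagenase MMP1 had 14.4, 26.9, 70.8 and 18.9 against 0.98, 1.7, 6.14 and 8.53, and the stromelysin MMP10 55.5, 20.1, 21.7 and 69.4 against 13.9, 0.84, 1.12 and 10, all dim. Both were called lower; the call of MMP1 ended without hCG day 15 replicate 1 or 2 (0.057 to 0.062) and that of MMP10 without untreated replicate 1 or 4 or hCG day 15 replicate 2 or 3 (0.055 to 0.086). A second MMP1 probe set was at -0.30 and not called. The other 21 of 24 protease and inhibitor genes were not called.

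Markers of other cell types were not called. This held for 11 endothelial, 6 pericyte and smooth muscle, 8 fibroblast, 5 T and NK cell, 3 B cell, 6 neutrophil, 4 mast cell, 2 erythroid and 6 surface epithelium genes. The endothelial median was -0.17, with summed signals of 9593 to 11028 in untreated and 7486 to 11478 in treated arrays, and THY1 of fibroblasts was closest to the threshold (-0.70, adjusted p = 0.053). MS4A1 of B cells, CPA3 and HDC of mast cells and CDH1, EPCAM and KRT7 of surface epithelium stayed under a signal of 16 on all 8 compared arrays. KRT8, also of surface epithelium, had 182, 152, 78.6 and 92.2 in untreated and 5.68, 5.34, 47.6 and 29.3 in treated arrays. Its groups did not overlap, but limma's test did not call the change of -1.999 (adjusted p = 0.078). The interferon response list had 0 of 21 called with 19 below 0 and a median of -0.39, and antigen presentation 0 of 13 with a median of -0.13. Without the 3 arrays that lay apart these medians were -0.33 and 0.07. Summed interferon response signals ranged from 26881 to 41745 in untreated and from 26016 to 33368 in treated arrays. Of 23 apoptosis genes BCL2L11, which encodes the death-promoting protein BIM, was called at 0.75, and that call ended without untreated replicate 2, 3 or 4 or hCG day 15 replicate 1, 2 or 4 (0.052 to 0.087). None of its other probe sets, between -0.20 and 0.42, was called. The WNT inhibitor gene APCDD1, at -0.62, was called only without hCG day 15 replicate 2 (0.057 to 0.14 otherwise), as 1 of 32 WNT genes. No heat shock gene of 15 was called.

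**Figure D4:**
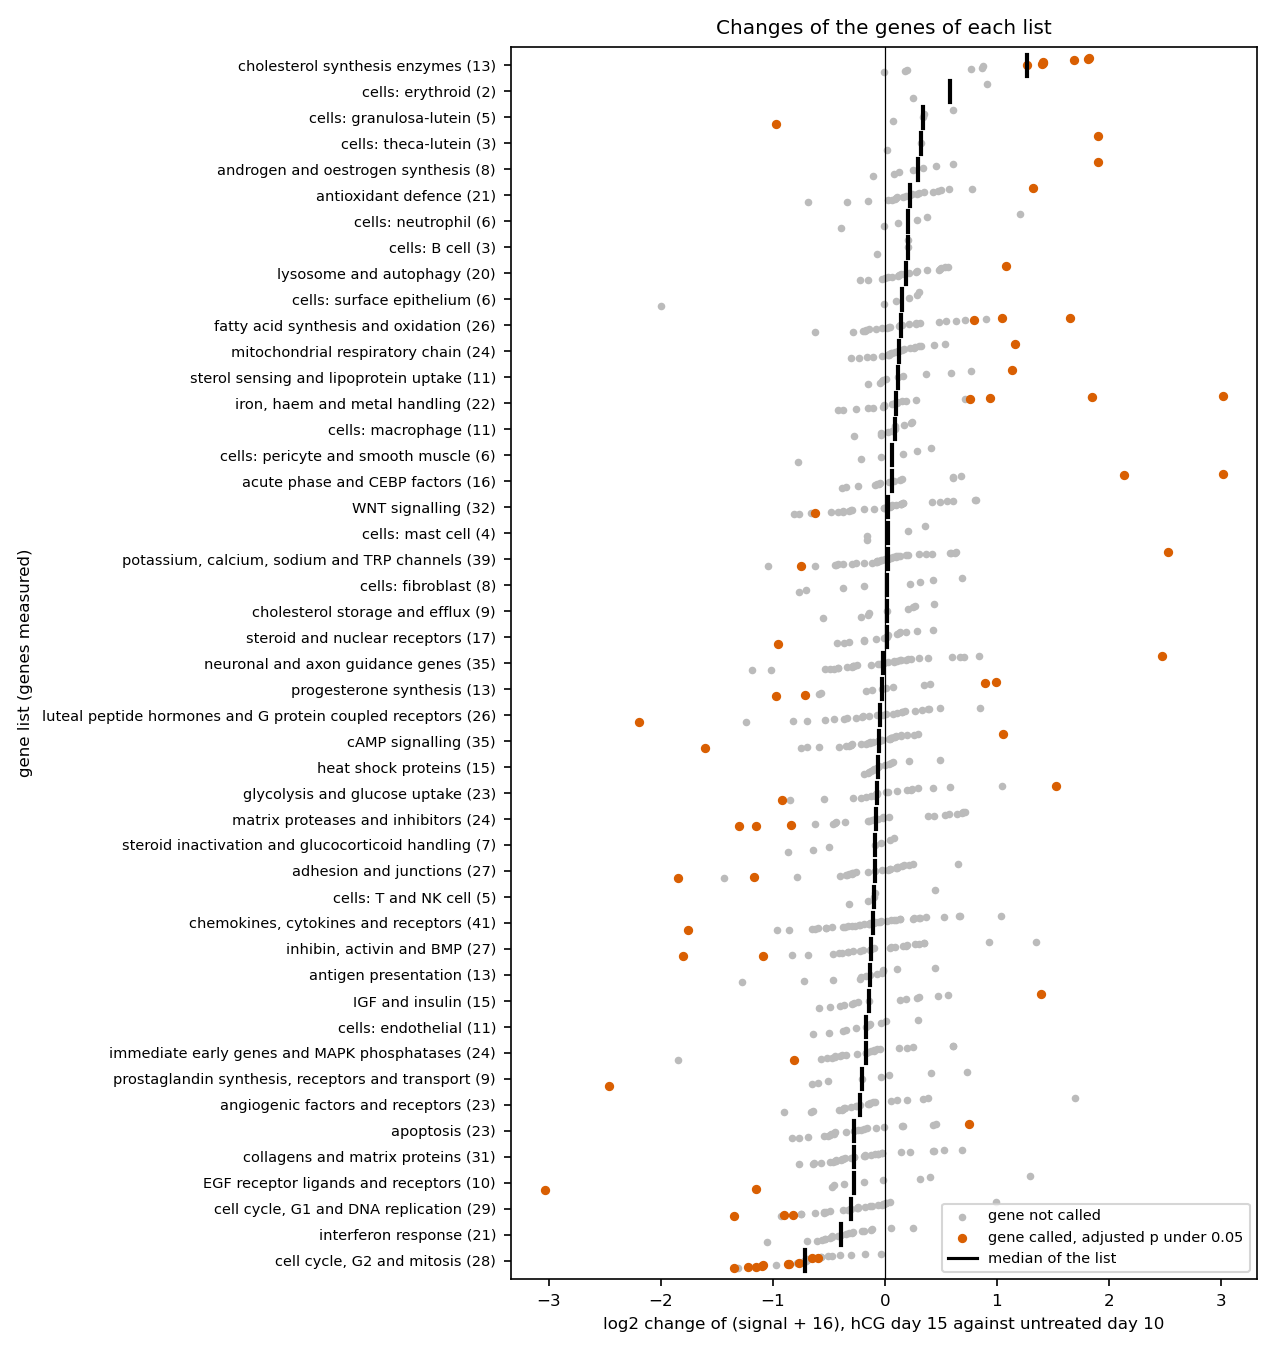
Log2 change of (signal + 16) in hCG day 15 against untreated day 10 for every measured gene of each list (1 point a gene, orange where called at an adjusted p under 0.05, grey otherwise), with the list's median as a vertical bar and the number of genes in parentheses. Cholesterol synthesis enzymes have the highest median, 1.27, and genes of G2 phase and mitosis the lowest, -0.71.

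The comparison of hCG day 15 against hCG day 10 set 6 days of treatment against 1 day; it shares the day 15 arrays with the comparison above. In it 999 probe sets were called (1.9%), 330 higher (0.626%) and 669 lower (1.27%), and 434 of them at least 2-fold (0.823%). Arrays of the groups did not overlap for 947 of the 999 (1.8% of all probe sets), against 6.61% of all probe sets. With 1 probe set per gene 2.94% of genes were called, 0.941% higher and 2% lower. The fit without hCG day 15 replicate 2 called 592, that without hCG day 10 replicate 3 or 4 called 624 and 654, and that without the 3 arrays that lay apart called 573. Genes that were higher both than on hCG day 10 and than in untreated tissue were CYBRD1 (1.93 against hCG day 10, adjusted p = 1.6e-05), DPYSL3 (2.59, adjusted p = 0.00076), MS4A8 (2.09, adjusted p = 0.0019), PYURF, a small protein of mitochondria (2.37, adjusted p = 9.9e-05), PLEKHA4 (1.91, adjusted p = 0.00094) and XKRX (1.84, adjusted p = 0.0022). PYURF had 90.2, 109, 91.2 and 94.3 in untreated and 278, 621, 303 and 388 in treated arrays, and PLEKHA4, a binder of membrane lipids, 82.4, 114, 66.0 and 64.5 against 225, 552, 268 and 207. Both had their highest treated signal in replicate 2, and the other probe sets of PYURF, at -0.03 and 0.06, were not called. XKRX, of the XK family of membrane proteins, had 121, 61.9, 60.3 and 97.1 against 311, 394, 166 and 446, and its change from untreated tissue was 1.51 without the 3 arrays that lay apart (adjusted p = 0.082). With only the 8 arrays of the comparison with untreated tissue, PLEKHA4 (adjusted p = 0.052) and XKRX (0.053) were not called.

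Genes with the largest falls against hCG day 10 were chosen with a mean signal of at least 100 on that day. Their high signal there thus follows from the choice, and untreated means are given beside it. TMPRSS7, a membrane serine protease, averaged 409 on hCG day 10, 56.9 in untreated and 16.1 in hCG day 15 tissue (-3.70 against hCG day 10, adjusted p = 0.00012). ELF5, an epithelial transcription factor, averaged 541, 51.4 and 27.6 (-3.43, adjusted p = 0.00085), and ANKRD22, an ankyrin repeat protein, 409, 57.7 and 24.3 (-3.47, adjusted p = 0.00088). None of the 3 was called against untreated tissue. INSM1, a neuroendocrine transcription factor, averaged 793, 196 and 32.0 (-3.56, adjusted p = 0.016), with a call that ended without hCG day 10 replicate 2 or hCG day 15 replicate 2 (up to 0.066) and in the fit of only the 8 arrays of this comparison (0.058). LOC702286 and LOC695959, which the annotation leaves without a gene name, had the same pattern, with -3.41 (adjusted p = 0.00099) and -3.11 (adjusted p = 1.8e-05). IGF1 averaged 2682 on hCG day 10, 1038 in untreated and 899 in hCG day 15 tissue, a change of -1.61 against hCG day 10 (adjusted p = 0.00033). HSD11B1, which regenerates active glucocorticoid, was at -0.83 against hCG day 10 (adjusted p = 0.001) and at -0.50 against untreated tissue (adjusted p = 0.065).

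The neighbouring collection days showed no call. In hCG day 15 against hCG day 12, limma called 0 probe sets, with 2705 at an unadjusted p under 0.05 (5.13%) and 2.45% of all probe sets without overlap between the groups. Leaving out hCG day 12 replicate 1 gave 4 calls and leaving out hCG day 15 replicate 3 gave 2. In hCG day 18 against hCG day 15, limma called 0, with 3688 at an unadjusted p under 0.05 (7%) and 3.67% without overlap. Leaving out hCG day 18 replicate 1 gave 1 call. Group means nevertheless lay in order for several of the genes above. AREG averaged 8115 in untreated tissue and 7158, 2957, 1166 and 626 on hCG days 10, 12, 15 and 18, and CYBRD1 1289, 1192, 2898, 4614 and 6131. For AREG the change from hCG day 12 to day 15 was -1.50 (adjusted p = 0.7) and for CYBRD1 0.68 (adjusted p = 0.64).

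To place the day 15 arrays in the course of treatment without using them for the choice of genes, 957 probe sets were taken that differed at least 2-fold between hCG days 10 and 18 (adjusted p under 0.05) in a fit without the day 12 and day 15 arrays. On a scale with hCG day 10 at 0% and hCG day 18 at 100%, the median probe set stood at 75.4%, 82.9%, 60.9% and 76.3% of the way on the 4 day 15 arrays. On the day 12 arrays it stood at 49.8%, 31.0%, 41.6% and 49.4%. The groups did not overlap, and hCG day 15 replicate 3 lay nearest to day 12. Untreated arrays stood at 29.6% to 33.4%. The same replicate lay nearest to the untreated mean in 290 of the 681 called probe sets (42.6%), against 188 for replicate 2, 128 for replicate 1 and 75 for replicate 4. That count is a description, since these arrays took part in the calls. Without replicate 3 the fit against untreated tissue called 774 probe sets.

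**Figure D5:**
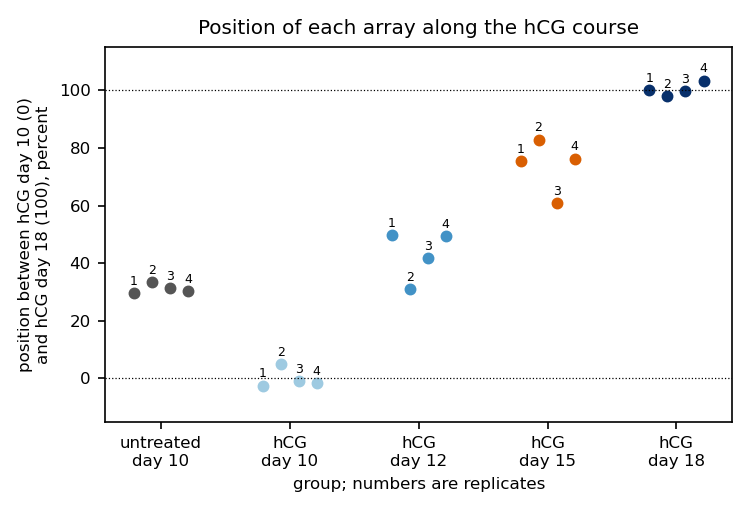
Median position of each array between hCG day 10 (0%) and hCG day 18 (100%) over 957 probe sets chosen without the day 12 and day 15 arrays; points are arrays, numbered by replicate. The hCG day 10 and day 18 arrays lie near 0 and 100 by construction, and the 4 day 15 arrays lie between 60.9% and 82.9%, above the day 12 arrays, with replicate 3 the lowest.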

How the data were processed

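RNA of 20 rhesus corpora lutea was hybridised to Affymetrix arrays, and the deposited intensity values, 1 per probe set and array, were made with GCOS, per the submitters' processing notes. Their scale was linear, and every array had the same trimmed mean of 200.01; the software version and the sequence build are not given in the sources used here. Groups came from the labels. Of 52865 probe sets, 158 controls were left out. Values were taken as log2(value + 16) and fitted over all 20 arrays with limma 3.58.1 in R 4.3.3 (lmFit, eBayes), with Benjamini-Hochberg adjustment over 52707 probe sets and calls at an adjusted p under 0.05. Tests were checked on simulated data. Probe sets were named through the platform annotation: 24956 had 1 symbol, 361 several and 27390 none. A gene in a list was represented by its brightest probe set. Named genes were the 12 largest rises and 12 largest falls among called probe sets with 1 symbol, groups that did not overlap and a mean of at least 100 in the higher group; up to 4 called members of each list by adjusted p (2 by p where none was called); the reference genes; the 6 largest rises and falls against hCG day 10 by the same conditions; and the 6 genes with the most probe sets called in 1 direction. Other list members quoted with values were chosen after their values were seen. The members and lists were chosen with earlier results of these data known. Alternatives changed the pseudocount, normalisation, filter, variance model, array weights, samples and replicate block. Of the 16 reference genes 10 were measured, and the other 6 are not analysed here. Figures were drawn with Python 3.11.15 and matplotlib 3.10.9.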

Additional observations from a re-analysis of the deposited data

Results flagged for a closer look

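For the genes of this paragraph the treated day 15 arrays differed from the hCG day 10 arrays by limma's test, so that the change from untreated tissue differs between 6 days and 1 day of hCG; both changes share the untreated arrays, and values are log2 differences of hCG day 15 from hCG day 10. Higher on day 15 were DPYSL3 by 2.59, CYBRD1 by 2.40 and 1.93 in its probe sets, PYURF by 2.37, MS4A8 by 2.09, PLEKHA4 by 1.91, XKRX by 1.84, VSIR by 1.61, BICDL1 by 1.40, SLC16A1 by 1.19, PPARGC1A by 1.11, IGFBP1 by 1.06, BLVRB by 0.91, KIAA1217 by 0.89, FTL by 0.84 and SQSTM1 by 0.65. Among genes that were high on hCG day 10, TMPRSS7 was at -3.70, INSM1 at -3.56, ANKRD22 at -3.47, ELF5 at -3.43, LOC702286 at -3.41, LOC695959 at -3.11 and IGF1 at -1.61. Among receptors, ligands and surface proteins, LRRC15 was at -2.92, AREG at -2.86, FSTL3 at -2.19, CLDN3 at -2.11, TNFRSF12A at -1.98, F2RL1 at -1.65, APCDD1 at -1.58, PTGDR at -1.47 and ITGA2 at -1.25. Of the genes of cell division UHRF1 was at -1.14, ANLN at -1.11, CCNB1 at -1.03 and KIF23 at -0.85. The remaining ones were CYP3A4 at -2.98, SLC17A4 at -2.46, NANOS1 at -2.39, AFF2 at -1.34, HSD3B2 at -1.28, HK1 at -0.98 and HSD11B1 at -0.83. Of 43 such calls 32 held whichever array was left out, and 14 ended in the fit of only the 8 arrays, among them those of VSIR (adjusted p = 0.11), BICDL1 (0.1), CCNB1 (0.088) and FTL (0.14), which had held with each array left out. The exceptions when an array was left out were BLVRB, HK1, IGFBP1, INSM1, ITGA2, KIF23, PPARGC1A, PTGDR, SLC16A1, SLC17A4 and SQSTM1, with adjusted p-values of up to 0.17.

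Single arrays stood apart from their group in 11 of 240 groups of 4 signals looked at (4.58%). The rule used gives about 1 in 20 for unselected groups of 4 normal values. Many of these genes were chosen by their calls and by groups that did not overlap, so the share cannot be set against that rate. In the untreated group these were replicate 2 for AFF2 with a signal of 254, for NANOS1 with 911, for SLC16A1 with 251 and for CPA3 with 13.2, replicate 4 for CYP19A1 with 3806 and replicate 1 for EPCAM with 5.30. In the hCG day 15 group they were replicate 2 for MRO with 1467, for NR5A2 with 715 and for TRPM3 with 376, and replicate 3 for CCNB1 with 257 and for CSF3R with 17.4.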

How the results depend on the processing

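In hCG day 15 against untreated day 10, the 681 calls became 410 with a pseudocount of 1, 230 with only the 8 arrays compared, 399 with 1 probe set per gene (p-values adjusted over those genes alone; adjusted over all probe sets, 278), 342 with a 2-fold minimum, 359 without the 3 arrays apart on principal component 3 (an alternative chosen after seeing the data) and 321 to 774 with each array left out. In hCG day 15 against hCG day 10, the 999 calls became 613, 394, 549, 434 and 573 under the same settings (416 in place of 549 when adjusted over all probe sets) and 592 to 1004 with each array left out. In hCG day 15 against hCG day 12, the count of 0 became 2 with a pseudocount of 1 and 0 to 4 with each array left out, and in hCG day 18 against hCG day 15 it became 0 to 1. The fit of only the 8 arrays ended 32 of 76 named calls against untreated tissue and 14 of 43 against hCG day 10. No named call changed direction, but the share of higher calls went from 47.9% to 64.7% with median-centred arrays, and some list medians near 0 changed sign, that of progesterone synthesis from -0.02 to 0.09. Replicate numbers were not taken as pairs, since the labels do not state pairing and not every correlation passed 0.1: same-numbered untreated and hCG day 15 arrays correlated in their deviations at 0.14, 0.25, 0.20 and 0.04, and each array correlated best with its own number in 4 of 4, a hint of pairing from the data. With the replicate block the counts were 673, 942, 0 and 0, and the calls of BLVRB, FADS2, NR5A2, ACSL1, HK1 and SLC17A4 against untreated tissue ended (adjusted p 0.051 to 0.08). Dim probe sets limit what could be called: 29.9% of untreated and 32.0% of hCG day 15 signals were under 16. The cause of these differences was not tested.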
